A study of Macaca mulatta with 12 samples.

Results

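Liver biopsies of 6 male rhesus macaques about 4.6 years old were compared between animals later classed as very heavy drinkers (VHD, 3 animals) and animals later classed as light drinkers (LD, 3 animals), over a pair of time points. Every animal was biopsied at baseline, before any ethanol, and again at the end of an induction of 90 days, in which both classes drank the same amounts in 3 steps of 30 days, at 0.5, 1 and 1.5 g of ethanol daily per kg. The classes were set by a later phase of 12 months with free access to ethanol, at whose end VHD animals drank 4 g per kg daily and LD animals 1.5 g per kg daily, so neither biopsy was taken under the intake that names the class. All 12 libraries of the series were used. The class difference was taken as the mean of the baseline and post-induction log2 CPM (counts scaled to a library total of 1e6) of each animal, 3 VHD against 3 LD animals, and the genes described are those whose 3 VHD values all lay on 1 side of the 3 LD values at baseline and again post-induction. This held for 77 of 18373 genes tested and 4 of 427 miRNAs tested.

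The liver removes most ingested ethanol, by alcohol dehydrogenases in the cytosol and aldehyde dehydrogenases in mitochondria, and at high intake also by the microsomal enzyme CYP2E1. Baseline and induction biopsies of the same animals show which expression differences between future classes are present before any ethanol and again after a fixed intake. In bulk biopsies fewer cells of a type and less RNA per cell cannot be told apart. FGF21, a hormone that the liver secretes, and CYP7A1, the enzyme that starts bile acid synthesis, were included as a panel with CYP2E1 and ADH4 because of their known links to ethanol or liver metabolism.

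The libraries held 5970033 to 25060718 transcript counts and 127740 to 613359 miRNA counts. VHD baseline 3 and VHD post-induction 2 stood apart, with 9.39 and 11.9 miRNA counts per 1000 transcript counts. The other 10 libraries had more, up to 43.5. After the group means were removed, the libraries of 1 animal correlated across genes at 0.41, -0.35 and 0.1 for VHD animals 1, 2 and 3 and at 0.07, -0.02 and 0.35 for LD animals 1, 2 and 3, so the time points of 1 animal were not alike in every animal, least in VHD animal 2. The baseline libraries of VHD animals 2 and 3 correlated better with a post-induction VHD library of another number, at up to 0.26 and 0.33 across genes (likewise LD animal 2 within LD, at 0.19), and across miRNAs at 0.5 and 0.54 against -0.62 and -0.26 with their own. Which animal each of these libraries came from is taken here from the titles, and that match was not tested. Genes that split the libraries by a gap above 3 on the log2 scale set VHD baseline 3 apart with VHD post-induction 3 in 30 genes. They set it apart with VHD post-induction 2 in 17 genes. The counts of genes without overlap and the size of a class difference do not use that match, while its standard error and p do. Summed hepatocyte markers ranged from 133000 to 248000 CPM in VHD libraries and from 178000 to 252000 CPM in LD libraries, and all 9 markers tested were above 0 in every library.

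The classes differed past the threshold in 1 gene. ENSMMUG00000018314, which has no symbol or description in the sources used here and was singled out after its values were seen, had 0.104, 3.63 and 0.518 CPM in VHD animals 1, 2 and 3 at baseline, against 185, 187 and 276 CPM in LD animals 1, 2 and 3. Post-induction it had 0.69, 2.19 and 0.632 CPM in the VHD animals, against 175, 152 and 171 CPM in the LD animals. All 6 VHD libraries were low and all 6 LD libraries were high, VHD animal 2 was the highest of its class both times, and the closest pair of libraries was 41.8-fold apart. The counts behind these values were 1, 59, 14, 5, 40 and 14 in the VHD libraries, 133 in all, and 1067 to 3843 in each LD library, 15304 in all.

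The VHD minus LD difference of ENSMMUG00000018314 was -7.59 ± 0.60 on the log2 scale (limma's moderated SE, 3 animals each). Its adjusted p was 0.0107 in limma, Benjamini-Hochberg adjusted over 18373 genes. The difference was -7.99 at baseline and -7.19 post-induction. This call was 1 gene, or 0.00544% of those tested; 531 genes, 2.89%, had an unadjusted p under 0.05, where 919 would be reached if p-values were uniform. An exact permutation test of 3 against 3 animals cannot give a p below 0.1. The direction stayed the same under every alternative run, but the adjusted p passed 0.05 when VHD animal 1 (0.069) or LD animal 1, 2 or 3 (0.235, 0.106 and 0.282) or 1 library, either the second VHD library post-induction (0.0734) or the third LD library post-induction (0.0556), was left out. It was 0.0668 without both VHD libraries that stood apart, 0.0551 with upper-quartile factors, 0.096 with library totals alone, 0.0592 for the transcript among all transcripts, 0.075 with edgeR on counts summed per animal and 2.87e-30 with DESeq2 on the same sums.

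ENSMMUG00000018314 has its place on chromosome 14 of Mmul_8.0.1, with listed start 11103782, end 11114307, plus strand and 1 transcript, between 2 genes of the phospholipase A and acyltransferase family, PLAAT3 and PLAAT4. Whether its reads come from a near-identical copy was not tested. Of the genes within 200 kb that were tested, PLAAT3 was the other one whose classes did not overlap at either time point. PLAAT3 (ENSMMUG00000005775, chromosome 14, 11013775 to 11049180, plus strand), an enzyme of phospholipid breakdown with a known role in fat tissue lipolysis, had 37.6, 44.9 and 64.4 CPM in VHD and 83.7, 65.7 and 66 CPM in LD animals at baseline. Post-induction it had 42.9, 47.5 and 50.1 CPM in VHD and 80.3, 64.5 and 61.3 CPM in LD animals. Its classes lay side by side at baseline, where VHD animal 3 came within 0.03 of the lowest LD animal on the log2 scale, and further apart post-induction. The difference of PLAAT3 was -0.56 ± 0.24 (adjusted p = 0.999, limma). Those of RTN3 (0.32 ± 0.37), ATL3 (0.01 ± 0.38), PLAAT4 (-0.30 ± 0.37), LGALS12 (0.23 ± 0.39), PLAAT5 (0.30 ± 0.36) and SLC22A8 (0.42 ± 0.37) were smaller than or close to their errors.

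**Figure D1:**
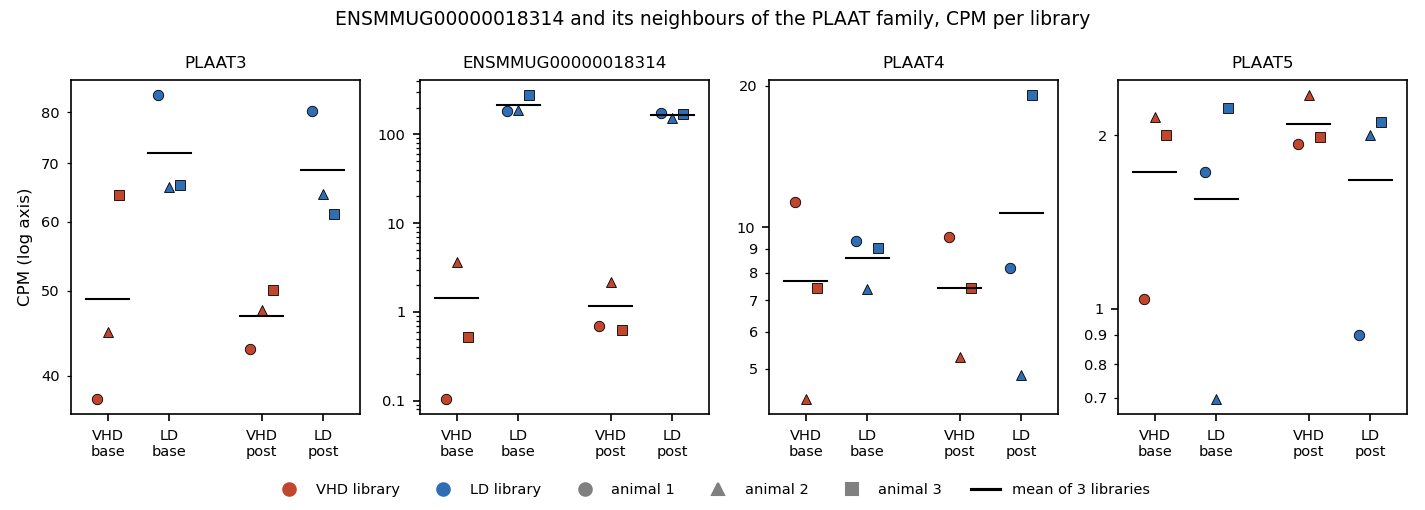
CPM per library (log axis) of ENSMMUG00000018314 and of the neighbouring genes PLAAT3, PLAAT4 and PLAAT5, by class and time point (base, baseline; post, post-induction). Points are single libraries, symbols mark the animal and bars the mean of 3 libraries. ENSMMUG00000018314 lies between 0.104 and 3.63 CPM in VHD and between 152 and 276 CPM in LD libraries, while PLAAT4 and PLAAT5 overlap.

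The 77 genes were a small remainder of those apart at 1 time point. At baseline 1324 genes (7.21%) and post-induction 887 genes (4.83%) had no overlap between the classes. If class made no difference, full separation of 3 against 3 animals would be met in a share of 0.1 of genes. The shares at baseline and post-induction both lay below that, so the genes without overlap are a description and not a set shown to differ by class. On the same side at both were 77 genes (0.419%), of which 47 were higher in VHD (0.256%) and 30 lower (0.163%), and 19 genes (0.103%) were apart at both time points on opposite sides. Of the 759 genes higher in VHD at baseline, 6.19% were also higher post-induction and 1.98% were lower, beside 2.67% higher and 2.16% lower post-induction among all genes tested. Of the 565 lower at baseline, 5.31% were also lower post-induction and 0.708% were higher. The genes on the same side made up 9.57% of the 491 higher and 7.58% of the 396 lower post-induction. Across all 18373 genes the class differences at baseline and post-induction correlated with r = 0.26; the time points share the animals and the scaling, and genes are not independent replicates.

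**Figure D2:**
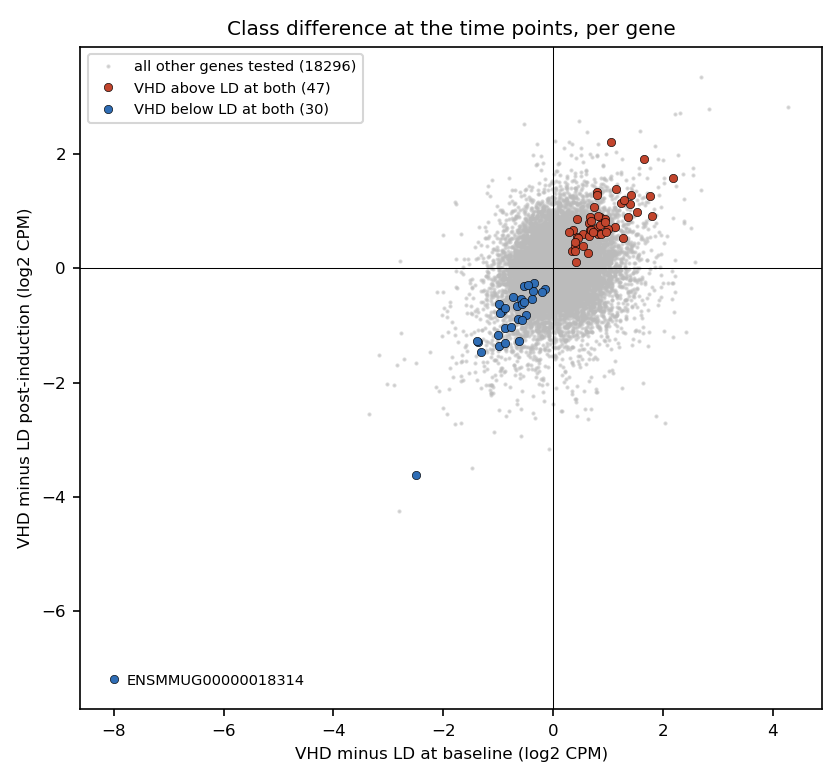
VHD minus LD log2 CPM of every gene tested, at baseline (x axis) and post-induction (y axis). Coloured points are the 47 genes higher and the 30 genes lower in VHD with no overlap at either time point, and grey points are the other genes. ENSMMUG00000018314 lies alone at -7.99 and -7.19.

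The gaps were narrow. The gap, the distance on the log2 scale between the nearest VHD and LD animals at the time point where they were closer, had a median of 0.07 over the 77 genes, was under 0.1 in 43 and reached 0.5 in 1, ENSMMUG00000018314. Just inside the rule lay KIF9 (0.002), ACTRT3 (0.006) and ADAR (0.007), and just outside it HPS4 (-0.006), TTC13 (-0.007) and PRMT3 (-0.007), whose classes overlapped at 1 time point. In the limma test 50 of the 77 had an unadjusted p under 0.05, which the choice of the genes largely fixes, and the 76 other than ENSMMUG00000018314 had an adjusted p of 0.999. The change of the class difference with time ranged from -1.12 to 1.16 among the 77. None of the 77 had an unadjusted p under 0.05 in the limma test of that change. The choice of genes on the same side at both time points largely fixes this, so it does not show that the differences last. None of the 18373 genes passed the adjusted threshold in that test. Under 4 other scalings of the counts 29 of the 77 kept their separation in all and 1, DENND2B, in none.

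Of the 77 genes, 58 had a symbol (75.3%, against 74.1% of all genes tested). They lay on 18 chromosomes with at most 10 on 1. Their mean level was slightly below that of other genes, with a median of 1.84 log2 CPM against 2.27 over all genes tested. In 27 of them a library was under 1 CPM, and 5 had a library at 0. The filter on low counts asked for 0.673 CPM in 3 libraries, which 64 of the 77 also reached in the libraries of their lower class alone (35 of 47 and 29 of 30); the other 13 passed through the class where they were higher and had to differ.

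PAEP had the largest difference of the 15 named genes higher in VHD. PAEP (ENSMMUG00000017915, chromosome 15, 2796810 to 2812179, minus strand) encodes glycodelin, a lipocalin best known from the uterus. It had 1.76, 2.89 and 2.96 CPM in VHD and 1.21, 1.33 and 0.862 CPM in LD animals at baseline. Post-induction it had 11.2, 54.8 and 18 CPM in VHD and 8.21, 7.95 and 1.53 CPM in LD animals. Its levels were higher post-induction in every animal of both classes, VHD animal 2 was far above the rest post-induction, and its class difference was 1.64 ± 0.47. CXCL14 (ENSMMUG00000004771, chromosome 6, 133289243 to 133297589, minus strand) encodes a chemokine. It had 6.94, 10.4 and 11 CPM in VHD and 2.08, 5.76 and 4.81 CPM in LD animals at baseline. Post-induction it had 5.52, 15 and 9.02 CPM in VHD and 3.71, 3.94 and 4.5 CPM in LD animals. VHD animal 1 was nearest to the LD animals both times, and the difference was 1.19 ± 0.34.

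LGALS3BP (chromosome 16) encodes a secreted glycoprotein that binds galectins. It had 17.9, 19.2 and 17 CPM in VHD and 12.8, 8.48 and 10.2 CPM in LD animals at baseline, and 11.5, 32.7 and 12.5 CPM in VHD and 10.8, 4.59 and 6.23 CPM in LD animals post-induction. The VHD animals were alike at baseline, while VHD animal 2 was well above the other VHD animals post-induction, and the difference was 1.04 ± 0.32. COL6A1 (chromosome 3), a chain of collagen VI in the matrix, ranged from 5.24 to 7.28 CPM in VHD and from 3.31 to 5 CPM in LD libraries (0.50 ± 0.27).

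HSD17B13 had the highest CPM of the 77 genes, a scale not corrected for transcript length. It encodes a hepatocyte enzyme on the surface of lipid droplets, known from human genetics of fatty liver disease. HSD17B13 (ENSMMUG00000019040, chromosome 5, 85647719 to 85669270, minus strand) had 337, 334 and 283 CPM in VHD and 262, 271 and 251 CPM in LD animals at baseline. Post-induction it had 481, 333 and 466 CPM in VHD and 257, 317 and 246 CPM in LD animals. The classes did not overlap but nearly touched, at VHD animal 3 at baseline and at VHD animal 2 and LD animal 2 post-induction, with a gap of 0.062. Its class means were 318 ± 30.4 CPM in VHD and 261 ± 9.77 CPM in LD animals at baseline, and 427 ± 81.5 CPM in VHD and 273 ± 38.3 CPM in LD animals post-induction (SD, n = 3 each). The difference was 0.46 ± 0.24, with an adjusted p of 0.999 in limma. Summed hepatocyte markers had a median of 157000 CPM in VHD and 215000 CPM in LD libraries, with overlapping ranges. Their part in this difference was not tested.

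VHD animal 3 stood far above the rest in 2 genes. RECQL5, a RecQ DNA helicase (chromosome 16), had 2.28, 2.34 and 13 CPM in VHD and 1.73, 1.45 and 1.44 CPM in LD animals at baseline, and 3.04, 3.18 and 7.8 CPM in VHD and 1.91, 2.33 and 2.4 CPM in LD animals post-induction. SCN10A, a voltage-gated sodium channel of sensory neurons (chromosome 2), had 1.35, 2.15 and 12.6 CPM in VHD and 1.21, 1.14 and 0.503 CPM in LD animals at baseline, and 2.21, 2.08 and 7.62 CPM in VHD and 1.01, 1.68 and 1.25 CPM in LD animals post-induction. Both libraries of VHD animal 3 were the 2 highest libraries of both genes by a wide margin, while VHD animals 1 and 2 lay just above the LD animals. The differences were 1.13 ± 0.48 for RECQL5 and 1.52 ± 0.58 for SCN10A.

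The other named genes higher in VHD had differences between 0.35 and 0.92 and a variety of roles. ACAP3 is a GTPase-activating protein for Arf GTPases (0.75 ± 0.31), and VHD animal 3 at baseline, at 8.44 CPM, was its highest library. RAVER2 is an RNA-binding protein (0.76 ± 0.31). DUOXA1 is a maturation factor of a dual oxidase, an enzyme that makes hydrogen peroxide (0.73 ± 0.30). PLA2G4B is a cytosolic phospholipase (0.67 ± 0.28). B3GNT9 belongs to a family of glycosyltransferases (0.92 ± 0.30), and XPO5 exports precursor miRNAs from the nucleus (0.35 ± 0.26, kept under 1 of the 4 other scalings). FAM234A (0.67 ± 0.24) had 8.9, 11.2 and 11.1 CPM in VHD and 5.88, 7.46 and 6.11 CPM in LD animals at baseline, and 14.2, 10.8 and 18.9 CPM in VHD and 8.8, 8.47 and 9.49 CPM in LD animals post-induction. ARMC5, an armadillo-repeat protein (0.57 ± 0.28), completed the 15.

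Below the level that the naming rule asked for, and chosen after their values were seen, were several of the widest gaps. LTC4S, which makes the inflammatory lipid leukotriene C4, had 3.73, 1.48 and 3.07 CPM in VHD and 1.04, 0.569 and 0.647 CPM in LD animals at baseline, and 2.35, 3.07 and 1.44 CPM in VHD and 1.11, 0.129 and 0.575 CPM in LD animals post-induction (1.79 ± 0.43). DPEP1, a membrane dipeptidase, ranged from 0.621 to 1.1 CPM in VHD and from 0.144 to 0.517 CPM in LD libraries (1.25 ± 0.40). TNFRSF9, a costimulatory receptor of activated T cells, had 0.207 to 0.828 CPM in VHD and 0 to 0.424 CPM in LD libraries (1.26 ± 0.43), a level of few reads. ZMYND10, an assembly factor of the dynein arms of cilia (1.24 ± 0.40), was at a similarly low level. LTC4S, DPEP1, TNFRSF9 and ZMYND10 are among the 13 genes that did not reach the filter cutoff in 3 libraries of their lower class. They passed through the class where they were higher, here VHD, and so had to differ. Their values are a description. MATN4, a matrilin of the extracellular matrix (0.87 ± 0.32), reached the filter in LD libraries too. Summed T and NK cell markers overlapped, with 12.9 to 21.9 CPM in VHD and 9.61 to 20.4 CPM in LD libraries, and summed neutrophil markers were 14.3 to 46.9 CPM in VHD and 10.5 to 18.4 CPM in LD libraries. Their part in these results was not tested.

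Of the genes lower in VHD with a symbol, PIK3C2G had the widest gap among those at the level the rule asked for. PIK3C2G (ENSMMUG00000022174, chromosome 11, 19114169 to 19518537, plus strand) encodes a class II phosphoinositide kinase found mainly in liver. It had 8.39, 5.05 and 10.3 CPM in VHD and 12.6, 28.7 and 21.6 CPM in LD animals at baseline. Post-induction it had 9.38, 5.97 and 14 CPM in VHD and 25, 19.7 and 24.2 CPM in LD animals. VHD animal 2 was the lowest both times and VHD animal 3 the highest of its class, and the difference was -1.33 ± 0.31 (adjusted p = 0.999, limma).

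TEKT2, a tektin of the microtubules of cilia and flagella, had 3.11, 3.45 and 0.741 CPM in VHD and 5.36, 4.24 and 6.47 CPM in LD animals at baseline, and 3.59, 2.63 and 0.812 CPM in VHD and 4.13, 10.2 and 4.5 CPM in LD animals post-induction. VHD animal 3 was the lowest of all at both time points, and the difference was -1.39 ± 0.48. MCOLN1, a cation channel of lysosomes, had 7.45, 6.28 and 6.18 CPM in VHD and 10.6, 10.3 and 10.2 CPM in LD animals at baseline, and 3.45, 5.04 and 4.38 CPM in VHD and 9.8, 5.75 and 8.82 CPM in LD animals post-induction. Within each class the baseline values lay close together, and the difference was -0.76 ± 0.25. GGCT, an enzyme of glutathione breakdown, ranged from 8.54 to 16.6 CPM in VHD and from 16.4 to 36.2 CPM in LD libraries (-0.96 ± 0.26); at each time point the classes did not overlap.

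Other named genes lower in VHD were NEPRO, a nucleolar protein (-0.78 ± 0.26), TC2N, a protein with C2 domains (-0.90 ± 0.27), WDR37, a WD-repeat protein (-0.56 ± 0.25), DCUN1D2, a factor of neddylation (-0.42 ± 0.23), and TEX30 (-0.62 ± 0.24). APBA1 is an adaptor protein known from neurons (-0.84 ± 0.29). COA7, an assembly factor of cytochrome c oxidase, ranged from 13 to 25.4 CPM in VHD and from 18.2 to 42.2 CPM in LD libraries (-0.65 ± 0.23). SPART encodes spartin, a protein of endosomes and lipid droplets (-0.59 ± 0.22), and is one of the genes whose classes nearly touched, with a gap of 0.029.

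Small nucleolar RNAs were among them. U3 (ENSMMUG00000037615, chromosome 16, 18712664 to 18712881, minus strand), a copy of the RNA that guides an early cut of ribosomal RNA, had 13.9, 7.32 and 9.41 CPM in VHD and 21.3, 21.9 and 37 CPM in LD animals at baseline, and 7.45, 12 and 18.5 CPM in VHD and 21.1, 27.7 and 40.9 CPM in LD animals post-induction (-1.33 ± 0.28). SNORA53, an H/ACA snoRNA, ranged from 1.48 to 3.26 CPM in VHD and from 3.52 to 5.75 CPM in LD libraries (-0.95 ± 0.27). All VHD libraries lay below all LD libraries of both genes. U3 belongs to a family of near-identical copies, so its share of reads is uncertain. ENSMMUG00000047032, without a symbol here, lies at the same place (chromosome 16, 18712663 to 18712881, minus strand) and is also among the 77 (-1.08 ± 0.29). This locus is thus counted more than once among the genes lower in VHD. Summed C/D box snoRNAs overlapped between the classes (58300 to 149000 CPM in VHD, 71500 to 174000 CPM in LD libraries), as did H/ACA snoRNAs (677 to 1730 CPM in VHD, 1020 to 1710 CPM in LD libraries), with VHD post-induction 2 the lowest library of both sums; their part in these values was not tested.

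**Figure D3:**
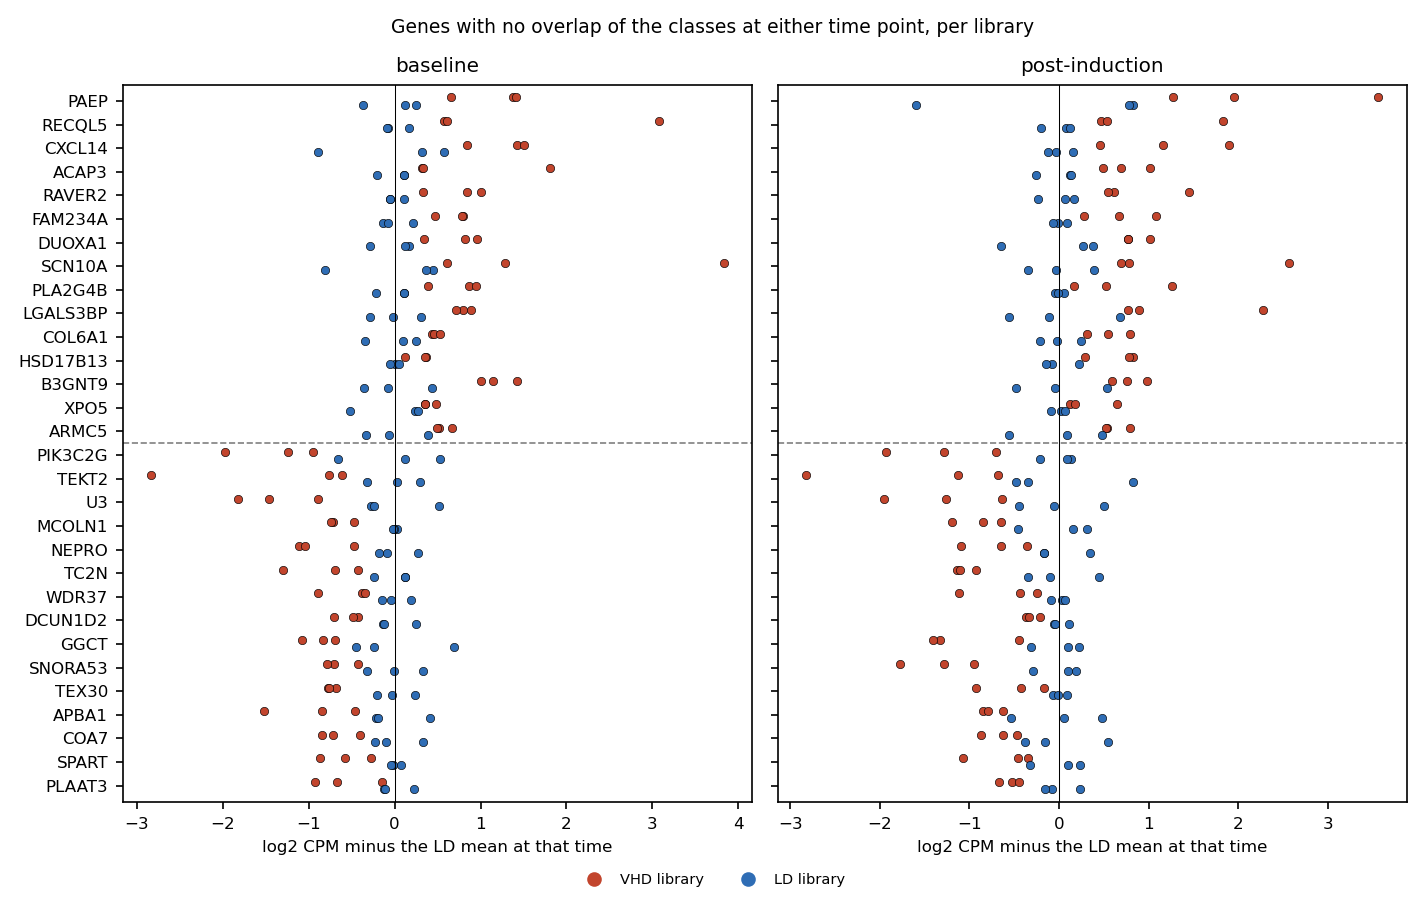
The 15 named genes higher in VHD (above the dashed line) and the 15 lower (below it), by library: log2 CPM minus the mean of the LD libraries at that time point, at baseline and post-induction. Points of the classes do not overlap in any row, and the high VHD points of RECQL5 and SCN10A are VHD animal 3 at both time points.

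Further genes were outside the naming rule or below its first 15 and were picked after their values were seen. PANK1, which starts the synthesis of coenzyme A, had 115, 123 and 106 CPM in VHD and 155, 133 and 241 CPM in LD animals at baseline, and 79.5, 67.1 and 121 CPM in VHD and 122, 155 and 222 CPM in LD animals post-induction. The class means were well apart but the nearest animals were within 0.01 on the log2 scale, and the difference was -0.74 ± 0.27. ADAR, an RNA-editing adenosine deaminase (-0.25 ± 0.21), and TUT7, an enzyme that adds uridines to RNA (-0.46 ± 0.23), were lower in VHD. SLC23A2, a vitamin C transporter, was higher (0.45 ± 0.24), with VHD animal 2 at baseline its highest library at 113 CPM. ENSMMUG00000048332, which has no symbol here, had the next largest difference among the 77 genes after ENSMMUG00000018314, -3.05 ± 0.62. It had 6.11, 4.25 and 0 CPM in VHD and 11.4, 6.7 and 8.05 CPM in LD animals at baseline, and 1.38, 0.164 and 1.17 CPM in VHD and 4.66, 20.7 and 10.6 CPM in LD animals post-induction, and its lowest libraries were the 2 that stood apart.

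Among miRNAs no class difference passed the adjusted threshold (0 of 427, 0%, in limma, in edgeR on sums per animal and in DESeq2), and 15 (3.51%) had an unadjusted p under 0.05 in limma, 14 in edgeR and 10 in DESeq2. Without VHD animal 1, 16 passed in limma, all lower in VHD and none of them among the 4 described next. The VHD animals left, 2 and 3, each hold 1 of the libraries that stood apart. miR-21-5p, among the 16, had 1060 CPM in VHD post-induction 2 and 3420 CPM in VHD baseline 3. In the other VHD libraries it had 55200 to 68400 CPM. The part of the libraries that stood apart in the 16 was not tested. At baseline 23 (5.39%) and post-induction 45 (10.5%) had no overlap; 4 (0.937%) had none at both on the same side, all higher in VHD (0.937%, against 0% lower), and 1 (0.234%), miR-3059-3p, changed sides. miR-485-5p (chromosome 7, 163389442 to 163389464, plus strand), from a large imprinted miRNA cluster, had 34.1, 29 and 34.4 CPM of all miRNA counts in VHD and 19.7, 17 and 13.8 CPM in LD animals at baseline. Post-induction it had 27.8, 61.7 and 36.6 CPM in VHD and 21.5, 9.58 and 9.25 CPM in LD animals. It had the widest gap of the 4, 0.302, and a difference of 1.04 ± 0.52 (adjusted p = 0.885, limma).

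miR-615-5p (chromosome 11, 52703060 to 52703082, plus strand), from the HOXC locus, had 81.9, 34.8 and 110 CPM in VHD and 29.5, 17 and 34.5 CPM in LD animals at baseline, and 48.7, 92.6 and 46.1 CPM in VHD and 39.4, 3.19 and 27.7 CPM in LD animals post-induction. LD animal 2 was the lowest both times, and VHD animal 2 at baseline was level with LD animal 3 (1.34 ± 0.51). miR-1225-5p (chromosome 20, 2108015 to 2108036, minus strand), a miRNA from a short intron, had 27.3, 58 and 25.2 CPM in VHD and 9.84, 21.2 and 24.2 CPM in LD animals at baseline, and 76.6, 46.3 and 57.2 CPM in VHD and 14.3, 24 and 12.3 CPM in LD animals post-induction (1.17 ± 0.50). The classes nearly touched at baseline and were well apart post-induction. miR-133b-3p (chromosome 4, 53110741 to 53110763, plus strand), known from muscle, had 47.8, 63.9 and 36.7 CPM in VHD and 29.5, 21.2 and 31.1 CPM in LD animals at baseline, and 83.5, 25.7 and 58.8 CPM in VHD and 17.9, 16 and 24.7 CPM in LD animals post-induction (0.95 ± 0.50). Its separation was lost under all 4 other scalings. All 4 miRNAs are of low abundance. The libraries held 127740 to 613359 miRNA counts, so the lower of these CPM rest on few counts. Examples are 9.84 CPM of miR-1225-5p in LD baseline 1 and 3.19 CPM of miR-615-5p in LD post-induction 2. A few reads can thus decide whether the classes overlap. No change of the class difference of these 4 miRNAs with time passed the test (adjusted p = 0.99, limma). Their choice, on the same side at both time points, largely fixes a small change.

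**Figure D4:**
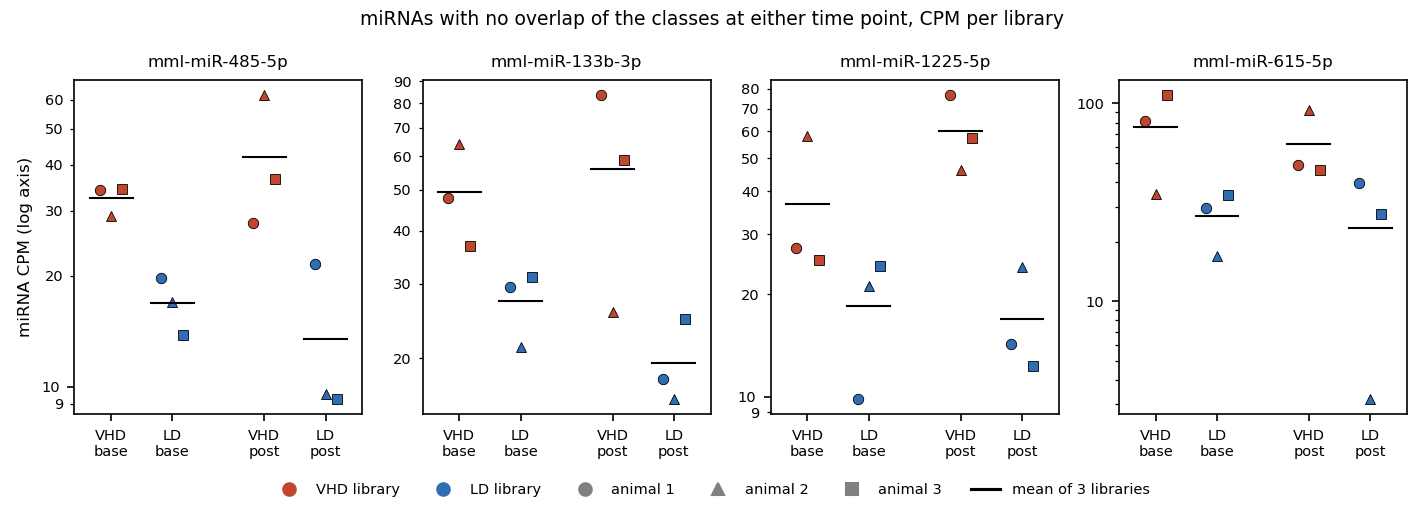
CPM per library (log axis, miRNA counts) of the 4 miRNAs with no overlap of the classes at either time point, by class and time point (base, baseline; post, post-induction). Points are single libraries, symbols mark the animal and bars the mean of 3 libraries. The VHD libraries lie above the LD libraries in each pair of columns, by the narrowest margin in miR-615-5p at baseline.

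No gene of the 32 gene lists for liver functions and cell types passed the test, and none was among the 77. The ethanol and acetaldehyde list had a median class difference of -0.08 over 14 genes, 4 of them positive, against 0.03 over all genes tested, 9724 of 18373 positive. CYP2E1 had 3550, 3240 and 1230 CPM in VHD and 2110, 2380 and 2280 CPM in LD animals at baseline, and 2230, 1590 and 1490 CPM in VHD and 2040, 1870 and 1810 CPM in LD animals post-induction. The VHD animals spread on both sides of the LD animals (-0.01 ± 0.32, a sign that turned under several alternatives). ADH4 was at -0.26 ± 0.33, FGF21 at 0.82 ± 0.49 and CYP7A1 at -0.92 ± 0.47, each with an adjusted p of 0.999 in limma. CYP7A1 had no overlap post-induction, with 7.59, 1.2 and 6.45 CPM in VHD and 9.64, 12.2 and 42.7 CPM in LD animals, but 27.3, 48.4 and 2.15 CPM in VHD and 15.6, 9.05 and 12.5 CPM in LD animals at baseline, where VHD animals lay above and below.

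The cholesterol synthesis and uptake list had the most uniform sign among the larger lists: 16 of its 17 genes were positive, with a median of 0.34 on the log2 scale and medians of 0.09 at baseline and 0.55 post-induction, and DHCR7, the last enzyme of cholesterol synthesis, had the largest difference, 0.99. Fatty acid and triglyceride synthesis had a median of 0.23 (19 of 25 positive), and acute phase proteins one of -0.15 (4 of 23 positive). Neutrophil markers were positive in 7 of 7 with a median of 0.53, and macrophage and Kupffer cell markers in 8 of 9 with a median of 0.35. The macrophage median was 0.48 at baseline and 0.10 post-induction, and the summed macrophage markers had a median of 493 CPM in VHD and 503 CPM in LD libraries. Their highest sums were in the libraries that stood apart, VHD baseline 3 (996 CPM) and VHD post-induction 2 (763 CPM). The other VHD libraries had 280 to 538 CPM, within the 185 to 611 CPM of LD libraries. Summed neutrophil markers were highest in VHD baseline 3 (46.9 CPM). In VHD baseline 1, VHD post-induction 1 and VHD post-induction 2 they were 14.7, 15.7 and 14.3 CPM, within the LD range of 10.5 to 18.4 CPM. An unadjusted p under 0.05 was reached by 2 of 17 cholesterol genes and 1 of 7 neutrophil markers, beside 2.89% of all genes tested. The let-7 family of miRNAs was negative in 11 of 12 with a median of -0.58, against 0.06 over all miRNAs, and miR-122a-5p, the main liver miRNA, was at -0.93 ± 0.71 and miR-21-5p at -1.23 ± 0.64 (adjusted p = 0.885 each, limma). Scaling by library totals alone moved the median of all genes to 0.15 and that of all miRNAs to 0.48; the cholesterol median was then 0.47, the acute phase median -0.02 and the let-7 median -0.14, so relative to all genes or miRNAs their sides did not change.

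**Figure D5:**
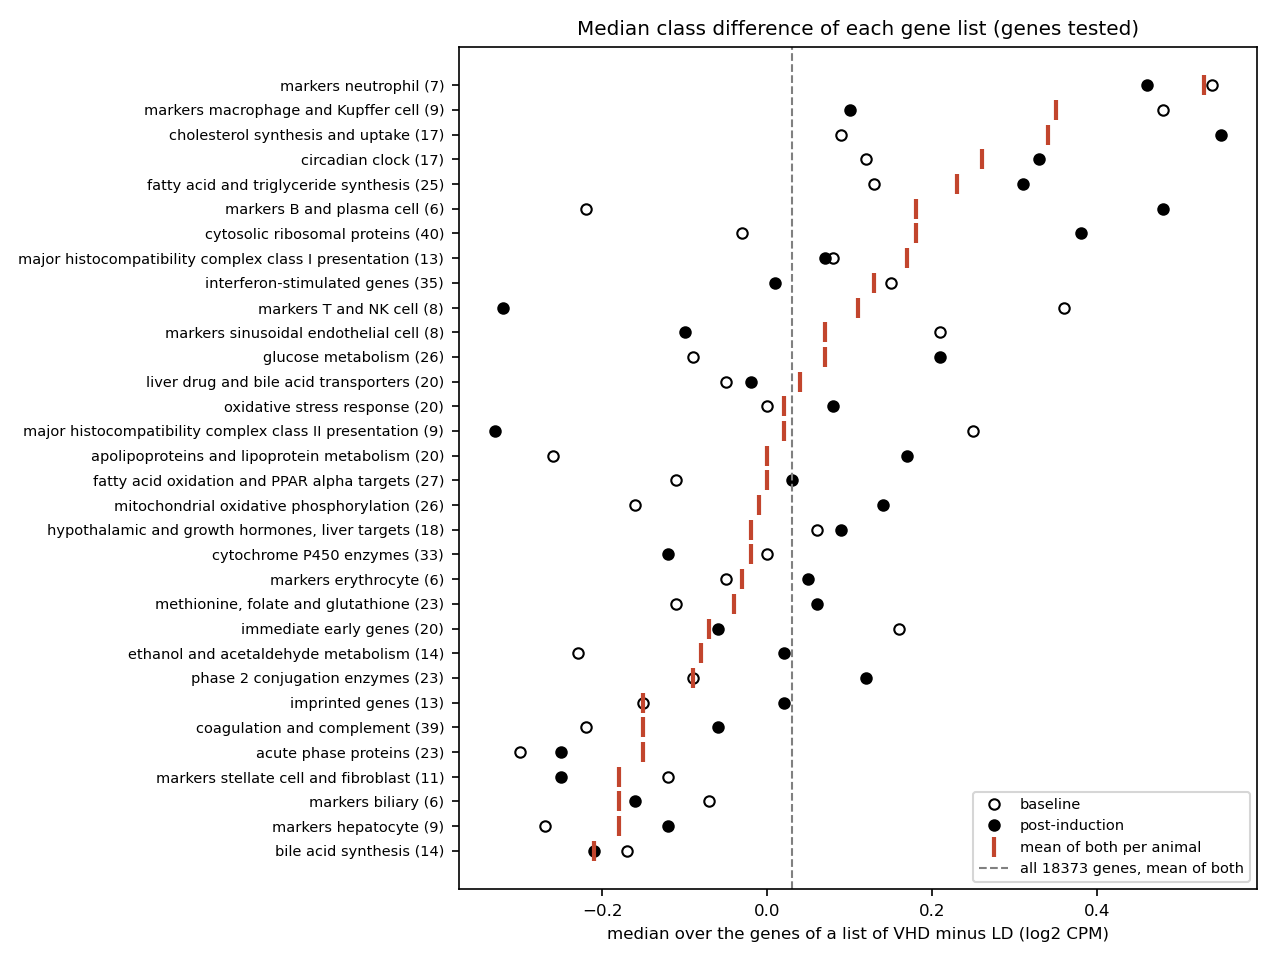
Median VHD minus LD difference (log2 CPM) over the tested genes of each of 32 lists, at baseline (open circles), post-induction (filled circles) and for the mean of both per animal (bars), with the number of genes tested in parentheses. The dashed line is the median of all 18373 genes tested, 0.03. In many lists the time points lie on opposite sides of that line, and no gene of any list passed the test.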

How the data were processed

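Expected counts per transcript and per mature miRNA, as the authors deposited them, were the data. The build is Mmul_8.0.1, and Bowtie, BWA and Partek were used, per the submitters' processing notes; which tool made which table is not given in the sources used here. The deposited normalized signal values equal the raw values times 1 constant per library and served as an alternative. Per the labels' protocols, 500 ng of RNA (RIN over 8.5) gave a combined mRNA and miRNA library, read to 76 bases.

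Transcripts (40611) were summed to 23993 gene identifiers, 8522 of them without a symbol in the reference used here, and rounded. Genes with low counts were removed (filterByExpr by group). Log2 CPM used TMM factors and a prior count of 2 (edgeR 4.0.16), and printed CPM use the same factors, so a miRNA can be scaled past its share. The baseline and post-induction values of each animal, matched by class and number in the titles, were averaged. The 3 VHD and 3 LD animals were compared with limma 3.58.1 (trend, robust; R 4.3.3), Benjamini-Hochberg adjusted over all genes or all miRNAs, threshold 0.05; the post-induction minus baseline values were tested the same way. The animal mean was preferred to edgeR's count test because each animal gave 2 libraries; edgeR and DESeq2 1.42.0 were alternatives. Errors beside differences are limma's moderated SE, 3 animals each. This SE draws on the variance of all genes or miRNAs, so it can lie below or above the spread of the animals. Separation without overlap was counted, not tested. Fits were checked on simulated data.

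The named genes were those with a symbol, a mean log2 CPM of at least 1 (3 for miRNAs) and the 15 widest gaps per direction, up to 10 per direction past the threshold, up to 4 per list, and a panel; ALDH2 of the panel matched no identifier. Members, lists and rule were chosen with earlier results of these data known. Starts are as listed and may differ by 1 base.  miR-21-3p, miR-122a-3p, miR-223 and miR-34a-5p of the panel are given with the alternatives.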

Additional observations from a re-analysis of the deposited data

How the results depend on the processing

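ENSMMUG00000018314 kept its direction in all 33 alternatives. The count of genes past the adjusted threshold was 0 with upper-quartile factors, library totals alone, the replicate block, edgeR on sums per animal, single transcripts as the unit, and with both VHD libraries that stood apart left out. It was 2 with DESeq2, which added MISP (-2.49), and with a term parting 5 from 7 libraries, which added DAO (1.59); leaving out 1 animal or library gave 0 to 1. Adjusted p-values of ENSMMUG00000018314 ran from 2.87e-30 (DESeq2) to 0.71 (replicate block), with 0.0551 for upper-quartile factors, 0.096 for library totals and 0.0592 for its transcript. The cause was not tested. The numbers in the titles only name animals: the pairing of equal numbers across classes gave correlations of 0.34, 0 and 0.29. With that block 2 miRNAs passed, miR-155 (-1.39) and miR-532-5p (-1.59), and without VHD replicate 1, 16 did, so leaving out 1 animal or library gave 0 to 16. The VHD animals left without replicate 1 hold both libraries that stood apart.

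The 77 genes without overlap became 69 to 112 under other scalings, filters and units. The genes themselves changed more than the count. Of the 77, 67 were kept with RLE factors, 69 with the deposited normalized values, 51 with upper-quartile factors and 38 with library totals alone. Fewer libraries make separation easier: leaving out 1 animal or library gave 95 to 714, with 71 to 77 of the 77 among them, and leaving out both libraries that stood apart gave 292. A gap of at least 0.5 or of at least 1 left 1 gene. The 4 miRNAs became 2 with RLE factors, 3 to 12 without 1 animal or library, and 0 at a gap of 0.5 or 1. The change of the class difference with time gave 0 calls under all alternatives run, which were chosen after seeing the data.

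Of 1457 values of the 45 named genes and miRNAs, 1403 kept direction and side of the threshold, 40 turned sign, all in the panel. Those outside the panel were chosen for lying on 1 side at both time points, which largely fixes a kept direction. Apart from ENSMMUG00000018314, none had a call to lose. CYP2E1 (-0.01) became 0.01 with upper-quartile factors, 0.11 with library totals, 0.07 with edgeR and DESeq2, 0.19 without the 2 libraries that stood apart, and -0.24 to 0.28 on leaving out 1 animal or library. CYP7A1 (-0.92) became 0.19 without those 2 libraries, and ADH4 (-0.26) ran from -0.47 to 0.03 on leaving out 1. miR-122a-3p (0.17) ran from -0.55 to 0.75 on leaving out 1 animal or library. miR-21-3p (-0.24) became 0.16 with library totals, 0.01 with the 5 and 7 term and -1.06 to 0.53 on leaving out 1 animal or library. miR-21-5p became 0.38 without the 2 libraries. miR-223 (-0.09) became 0.27 with library totals, 0.02 with edgeR on sums, 0.23 without the 2 libraries and -0.62 to 0.39 on leaving out 1 animal or library. miR-34a-5p (0.38) became -0.11 with edgeR on sums, -0.18 with DESeq2 and -0.02 to 0.74 on leaving out 1 animal or library. miR-122a-5p and miR-21-5p passed the threshold without VHD replicate 1 (-1.62 and -2.2), where the VHD animals left hold the libraries that stood apart. Depth limits genes of few counts such as TNFRSF9, at 0 in LD baseline 1, the library with the fewest counts.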

Other observations

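The 19 genes apart at both time points on opposite sides were not among the 77. In 15 of them VHD animals were higher at baseline and lower post-induction, and in 4 the reverse. S1PR2, a receptor of sphingosine phosphate, differed by 1.27 at baseline and -1.11 post-induction on the log2 scale, BMP5, a bone morphogenetic protein, by 1.08 and -0.92, and EPB41L2, a protein of the membrane skeleton, by 0.91 and -0.83. ADGRE1, a macrophage receptor, differed by 0.48 and -0.59. These were picked after their values were seen, and no test of the change with time passed the adjusted threshold.

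Genes that split the libraries by a gap above 3 on the log2 scale mostly set VHD libraries apart. VHD baseline 3 and VHD post-induction 3, the libraries of 1 animal, were set apart by 30 genes. VHD baseline 3 and VHD post-induction 2, which by the titles are different animals, were set apart by 17 genes. The 6 LD libraries were set apart from all VHD libraries by 1 gene, ENSMMUG00000018314.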
